A study of Homo sapiens with 6 samples.

Results

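The 10 genes described here encode tropomyosins and other proteins of actin stress fibres: TPM1, TPM2, TPM3, TPM4, TMOD3, ACTN1, ACTN4, MYL9, CNN1 and TAGLN. They were taken by symbol from a deposited table of 62754 genes, of which 19874 had enough counts to be tested. Each symbol matched 1 gene, and all 10 had at least 10 counts in at least 3 libraries, so none was set aside as low. The list was drawn up with the measured values of this same contrast in view, so the values of its members are given as a description, with no test.

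The study examined the part of NAT10, an acetyltransferase of proteins and RNA, in senescence, a lasting cell cycle arrest, of Cisplatin-treated kidney tubule cells. Cisplatin is a platinum drug that damages DNA and injures the proximal tubule. Described here is gene expression after NAT10 was lowered in such cells. The cells were HK-2, an immortalised human line derived from proximal tubule epithelium, transfected with a negative control siRNA (siNC) or with an siRNA against NAT10 (siNAT10); an siRNA is a short RNA duplex that lowers its target mRNA. Both groups received Cisplatin, given in the study's methods and not in the sample labels as 20 μM for 24 h, and each group had 3 libraries of bulk mRNA. No library without Cisplatin was analysed here, so the values compare NAT10 knockdown with control siRNA within drug-treated cells. Library totals lay between 19321665 and 25192736 counts. The labels do not say that the libraries came from separate cultures, so p-values measure only the spread between these samples, which may be technical.

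Stress fibres are contractile bundles of actin filaments and non-muscle myosin II that end at focal adhesions. Tropomyosins are coiled-coil dimers that lie along the filament, and the tropomyosin a filament carries influences which myosins, severing proteins and crosslinkers act on it; each gene makes several isoforms through alternative promoters and splicing. In the proximal tubule, actin supports the brush border and cell junctions, and it is rearranged during injury and repair.

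Expression is given as CPM, the counts of a gene per 1000000 counts of its library, scaled with trimmed mean of M-values (TMM) factors that correct for differences in library composition. NAT10 (ENSG00000135372, chromosome 11, 34105617 to 34147670, GRCh38) was measured first, as a check of the labels. Its level was 75.8, 71.4 and 73.2 CPM in the siNC libraries and 41.3, 40.5 and 42.4 CPM in the siNAT10 libraries. All 3 siNAT10 libraries lay below all 3 siNC libraries, at 56.5% of the siNC level. The log2 fold change, the base 2 logarithm of siNAT10 over siNC, was -0.82 with a standard error (SE) of 0.0426, and the adjusted p was 2.79e-15 by edgeR's quasi-likelihood test, with the Benjamini-Hochberg adjustment made over all tested genes. With 3 libraries against 3, an exact two-sided permutation test of a single value cannot give a p under 0.1, so none is given.

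TPM4 stood apart from the other members. This gene (ENSG00000167460, chromosome 19, 16067021 to 16102372, plus strand) encodes a tropomyosin found in many non-muscle cells. It had 8020, 9536 and 8471 counts in the siNC libraries and 19337, 21343 and 24252 counts in the siNAT10 libraries. Scaled, these were 426, 445 and 439.8 CPM with the control siRNA and 918, 976 and 957 CPM with the NAT10 siRNA. Every siNAT10 library was far above every siNC library, and within each group the 3 libraries lay close together. The group means were 437 ± 10.05 and 951 ± 29.5 CPM (SD, n = 3), a 2.17-fold difference, with a log2 fold change of 1.12 (SE 0.0342). In these bulk libraries, a change in the number of cells that carry a transcript and a change in its amount per cell cannot be told apart.

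TPM1 (ENSG00000140416, chromosome 15, 63042620 to 63071915, plus strand), a tropomyosin used in muscle and in the stress fibres of other cells, went the other way. Its levels were 805, 789.9 and 769 CPM in siNC and 612, 632 and 610.4 CPM in siNAT10. The groups did not overlap, and the siNAT10 mean of 618 ± 12.0 CPM was 78.4% of the siNC mean of 788 ± 18.4 CPM. The log2 fold change of TPM1 was -0.35 (SE 0.0328).

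TPM3 (ENSG00000143549, chromosome 1, 154155308 to 154194648, minus strand), which encodes slow-muscle and widely expressed cytoskeletal tropomyosins, was also lower with the NAT10 siRNA. Its levels were 1637, 1552 and 1545 CPM in siNC and 1335, 1329 and 1364 CPM in siNAT10. Again no siNAT10 library reached any siNC library, and the mean of 1342 ± 19.1 CPM was 85.1% of the 1578 ± 51.6 CPM in siNC. The log2 fold change of TPM3 was -0.23 (SE 0.0339).

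TPM2 (ENSG00000198467, chromosome 9, 35681992 to 35689925, minus strand), a tropomyosin best known from skeletal and smooth muscle, was hardly present. It had 22, 35 and 20 counts in siNC and 35, 29 and 54 counts in siNAT10. The groups overlapped, at 1.28 ± 0.314 and 1.71 ± 0.404 CPM, and the log2 fold change of 0.41 had an SE of 0.231. It was 0.21 without siNAT10 3 and 0.64 without siNC 2. At this depth the libraries of one group differed among themselves by a coefficient of variation (SD over mean) of 24.5% in siNC and 23.6% in siNAT10, against at most 6.42% for any other member in either group.

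**Figure D1:**
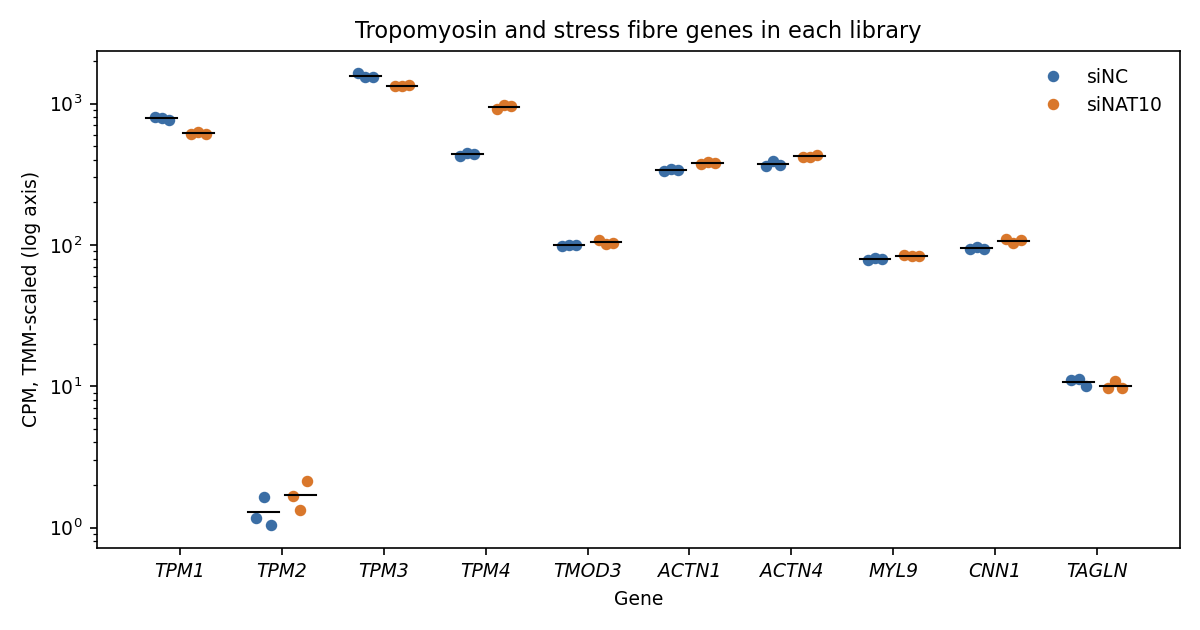
Level of each of the 10 members in every library, in TMM-scaled CPM on a log axis; each point is 1 library, coloured by group, 3 libraries a group. TPM4 shows the widest gap between the groups (437 against 951 CPM), while the points of TPM2 and TAGLN overlap.

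The plot of member levels by library covers a wide range, from TPM2 at 1.28 CPM in siNC to TPM3 at 1578 CPM, and places the groups side by side for each gene.

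The difference in TPM4 was accompanied by opposite differences in TPM1 and TPM3, so the makeup of the tropomyosin family differed between the groups. In reads, TPM4 was higher by 513 CPM, while TPM3 differed by -235 CPM and TPM1 by -170.0 CPM. The summed level of the 4 tropomyosin genes was 2870, 2789 and 2754 CPM in siNC and 2866, 2938 and 2934 CPM in siNAT10. These sums overlapped between the groups, at 2804 ± 59.3 and 2913 ± 40.2 CPM.

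Reads also scale with transcript length, so levels of different genes were compared as CPM divided by gene length in kilobases (RPKM), using the gene length in the deposited table. That length joins all exons of a gene and reaches 14700 bases for TPM1, whereas its 17 protein-coding transcripts in the GENCODE 29 basic annotation average 1387 bases. Both lengths were therefore used. By the table's length, TPM4 made up 17.4, 18.7 and 18.7% of summed tropomyosin RPKM in siNC and 36.3, 37.6 and 36.9% in siNAT10. By the mean transcript length, the TPM4 share was 11.0, 11.8 and 11.8% in siNC and 25.1, 26.1 and 25.6% in siNAT10. The size of the share depended on the length, but with either length the TPM4 share of every siNAT10 library was above that of every siNC library. The mean shares by the table's length were 18.3 ± 0.736% and 36.9 ± 0.637%.

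The share of TPM3 was 53.9 ± 0.779% in siNC and 42.6 ± 0.736% in siNAT10 by the table's length, and 53.5 ± 0.636% and 46.4 ± 0.744% by transcript length. The share of TPM1 was 27.7 ± 0.195% and 20.2 ± 0.347% by the table's length, and 34.9 ± 0.252% and 27.9 ± 0.459% by transcript length. TPM2 stayed under 1% of the sum in every library. The direction of the summed level itself depended on the length: siNAT10 over siNC was 1.07 with the table's length, where the groups did not overlap (198, 193 and 190.2 RPKM against 205, 210.1 and 209.7 RPKM), and 0.981 with transcript length, where they overlapped, so no direction is given for the family as a whole.

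A ratio of TPM4 to TPM1 reads within a library needs no length. Length cancels between the groups only if each gene had the same mix of transcripts in both, which was not tested. There were 0.529, 0.564 and 0.572 TPM4 reads per TPM1 read in siNC. In siNAT10 the ratio was 1.502, 1.55 and 1.57, with a mean of 1.54 ± 0.0335, which was 2.77 times the siNC mean of 0.555 ± 0.0230. The TPM4 to TPM3 ratio was 0.277 ± 0.0149 in siNC and 0.708 ± 0.0241 in siNAT10.

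**Figure D2:**
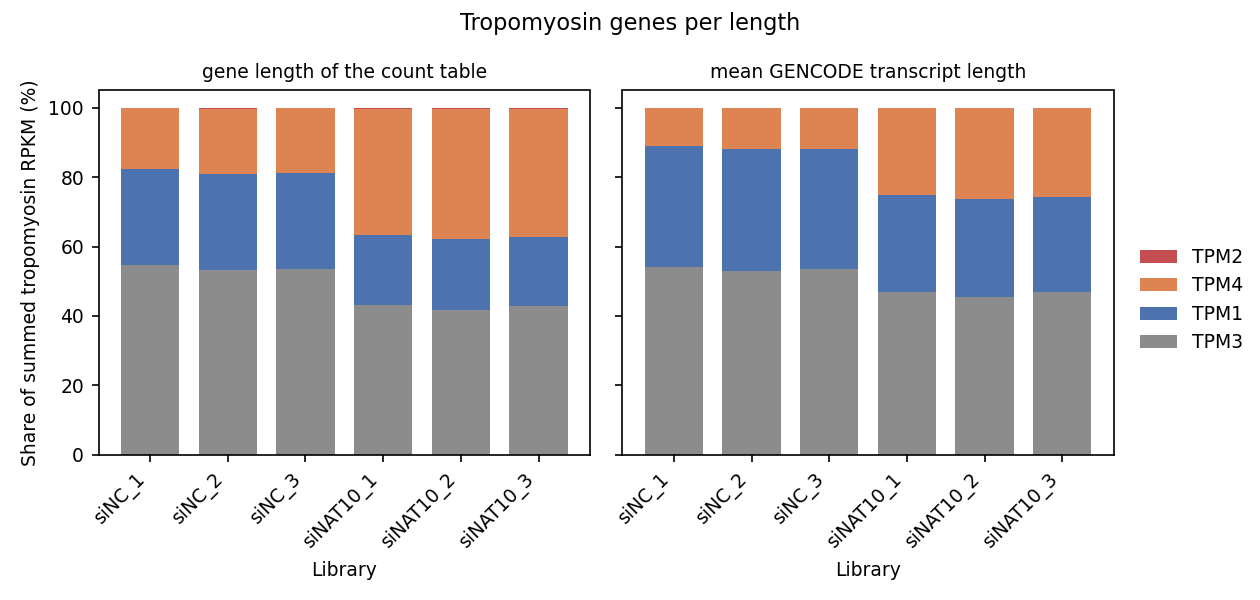
Share of each tropomyosin gene in the summed tropomyosin RPKM of each of the 6 libraries, in percent, by the gene length in the deposited table (left) and by mean transcript length (right); each stacked bar is 1 library. The TPM4 part covers 18.3% on average in siNC and 36.9% in siNAT10 on the left, 11.5% and 25.6% on the right, and TPM2, at under 1%, is barely visible.

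In the plot of tropomyosin shares, the 3 libraries of a group look alike and the groups differ in the TPM4, TPM3 and TPM1 parts.

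TPM4 has 3 annotated start sites with a promoter window in RefSeq (GRCh38.p14), each from 250 bases before the start to 50 after it. They are printed because TPM4 carried the widest difference. In all, 8 of the 10 members had windows, 16 together; MYL9 and TAGLN had none. The windows were searched on both strands for the CArG box, the element bound by serum response factor (SRF), and for CATTCC, the core of the element bound by TEAD factors. The CArG box was found in 454 of 35116 windows of the whole table (1.29%) and in 2 of the 16 member windows, and CATTCC in 4928 windows (14.0%) and 1 member window. A match is a description of the letters and not a site. The windows below lie at chr19:16067288-16067587, chr19:16076245-16076544 and chr19:16076766-16077065 on the plus strand for TPM4, with starts at 16067538, 16076495 and 16077016, and at chr14:68977517-68977816 on the minus strand for ACTN1, shown as the other window with a CArG box. Capitals mark the CArG box, which begins 173 bases before the TPM4 start and 171 bases before the ACTN1 start, and in ACTN1 also CATTCC, which begins 154 bases before the start.
TPM4, start 16067538: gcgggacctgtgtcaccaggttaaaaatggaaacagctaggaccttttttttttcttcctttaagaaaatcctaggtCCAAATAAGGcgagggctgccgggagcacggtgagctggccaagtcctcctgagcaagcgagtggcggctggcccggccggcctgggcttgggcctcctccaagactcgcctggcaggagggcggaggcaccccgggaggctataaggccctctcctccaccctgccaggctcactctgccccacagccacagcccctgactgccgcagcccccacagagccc
TPM4, start 16076495: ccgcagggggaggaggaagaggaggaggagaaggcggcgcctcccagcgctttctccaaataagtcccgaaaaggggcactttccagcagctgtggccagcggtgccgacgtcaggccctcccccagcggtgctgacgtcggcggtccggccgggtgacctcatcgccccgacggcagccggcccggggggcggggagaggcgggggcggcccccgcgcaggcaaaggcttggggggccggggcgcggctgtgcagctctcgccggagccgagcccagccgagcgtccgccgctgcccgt
TPM4, start 16077016: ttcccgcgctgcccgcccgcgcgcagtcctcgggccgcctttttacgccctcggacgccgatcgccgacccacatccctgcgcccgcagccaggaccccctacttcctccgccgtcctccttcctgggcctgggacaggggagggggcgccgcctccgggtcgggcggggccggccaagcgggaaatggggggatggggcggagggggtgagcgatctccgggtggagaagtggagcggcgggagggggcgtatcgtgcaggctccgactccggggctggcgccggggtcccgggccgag
ACTN1, start 68977566: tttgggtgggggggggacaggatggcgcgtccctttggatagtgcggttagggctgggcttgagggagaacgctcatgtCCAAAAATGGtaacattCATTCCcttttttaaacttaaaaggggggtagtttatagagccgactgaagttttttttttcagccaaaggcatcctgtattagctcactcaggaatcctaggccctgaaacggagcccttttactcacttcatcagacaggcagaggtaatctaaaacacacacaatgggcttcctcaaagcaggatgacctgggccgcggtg

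The counts are per gene, so they do not say which of these starts the TPM4 reads came from. A gene without a symbol, ENSG00000279198, lies inside TPM4 on the opposite strand (chromosome 19, 16074292 to 16077395) and spans the starts at 16076495 and 16077016. It had 1274, 1738 and 1543 counts in siNC and 3641, 4056 and 4497 counts in siNAT10, or 15.9 to 19.0% of the counts of TPM4 in the same libraries. Its log2 fold change was 1.22 (SE 0.0468), near that of TPM4. Whether the counting used the strand is not given in the sources used here, so reads of this gene and of TPM4 cannot be told apart.

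Pseudogene copies of the members can share reads with them in the same way. Of 15 copies found by symbol, those of TPM2, TPM3, TPM4 and ACTN4, 6 had at least 10 counts in 3 libraries, and these were copies of TPM3 and TPM4. The copies of TPM4 together had 2.16 to 2.96% of the counts of TPM4; TPM4P3 went from 3.09 to 7.27 CPM (log2 fold change 1.22, SE 0.147) and TPM4P2 from 9.16 to 14.9 CPM (0.70, SE 0.0817). The copies of TPM3 together had 5.19 to 6.06% of the counts of TPM3, and TPM3P5, TPM3P6, TPM3P7 and TPM3P9 had log2 fold changes from -0.20 to 0.46. These values are uncertain, since reads could be split between a gene and its copies.

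By a rule of Euclidean distance over the 6 libraries between log2 CPM profiles, each taken less the gene's own siNC mean so that its level drops out, the genes nearest to TPM4 among 12303 compared were LPCAT1, GPAT3, PTPRK, IL1R1 and RAPGEF1. LPCAT1, an acyltransferase of phospholipid remodelling, was at a distance of 0.0910 with a log2 fold change of 1.10. GPAT3, an enzyme of glycerolipid synthesis, was at 0.111, and the receptor phosphatase PTPRK at 0.116. Nearness here says only that these levels differed between the groups by a like amount.

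TMOD3 (ENSG00000138594, chromosome 15, 51829628 to 51947295, plus strand) is the widely expressed tropomodulin, which caps the slow-growing end of tropomyosin-coated filaments. Its levels were 98.8, 100.1 and 99.4 CPM in siNC and 108, 101 and 104 CPM in siNAT10. The siNAT10 libraries were all higher, by a narrow margin in 1 library, and the log2 fold change was 0.07 (SE 0.0367). It was 0.05 without siNAT10 1 and 0.11 with library size only. LEO1, on the opposite strand, overlaps the end of TMOD3 and had 101 to 117% of its counts.

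ACTN1 (ENSG00000072110, chromosome 14, 68874128 to 68979344, minus strand) and ACTN4 (ENSG00000130402, chromosome 19, 38647649 to 38730144, plus strand) encode the non-muscle α-actinins, which crosslink filaments along stress fibres and at adhesions. ACTN1 was at 335, 345 and 338 CPM in siNC and 374, 387 and 379 CPM in siNAT10. ACTN4 was at 362, 392 and 369 CPM in siNC and 421, 421 and 432 CPM in siNAT10. For both genes the siNAT10 libraries lay above the siNC libraries without overlap. ACTN1 was 1.12-fold higher (log2 fold change 0.16, SE 0.0321) and ACTN4 1.13-fold higher (0.18, SE 0.0342). Their balance did not move beyond its spread: ACTN4 over ACTN1 in RPKM was 2.58 ± 0.0669 in siNC and 2.61 ± 0.0639 in siNAT10 by the table's length, and 1.22 and 1.24 by transcript length.

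MYL9 (ENSG00000101335, chromosome 20, 36541497 to 36551447, plus strand) encodes a regulatory light chain of myosin II, whose phosphorylation switches on contraction. It was at 78.0, 80.2 and 79.5 CPM in siNC and 85.0, 82.9 and 83.9 CPM in siNAT10. The groups did not overlap, but the log2 fold change was only 0.08 (SE 0.0371). DLGAP4-AS1, on the opposite strand, spans MYL9 and had 12.2 to 17.0% of its counts.

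CNN1 (ENSG00000130176, chromosome 19, 11538767 to 11550321, plus strand) encodes calponin, an actin-binding regulator of smooth muscle contraction. It was at 93.8, 97.2 and 92.9 CPM in siNC and 109.7, 103 and 109 CPM in siNAT10. All siNAT10 libraries were higher, and the difference was 1.13-fold (log2 fold change 0.18, SE 0.0375).

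TAGLN (ENSG00000149591, chromosome 11, 117199370 to 117204541, plus strand) encodes transgelin, a calponin relative that binds actin filaments in smooth muscle. It was at 11.0, 11.3 and 10.1 CPM in siNC and 9.78, 10.8 and 9.66 CPM in siNAT10. The groups overlapped, and the log2 fold change of -0.10 had an SE of 0.0846. It was -0.15 without siNC 3 or siNAT10 2 in turn, and -0.06 without siNAT10 3 or with library size only. PCSK7, which overlaps the end of TAGLN on the opposite strand, had 295 to 408% of the counts of TAGLN, so the TAGLN value is uncertain.

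**Figure D3:**
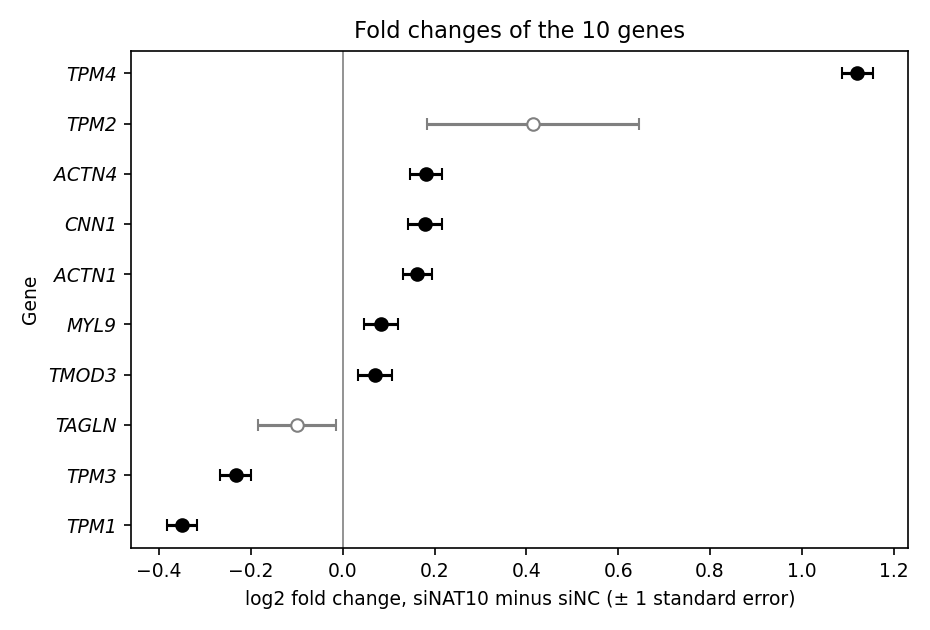
Log2 fold change of each member, siNAT10 minus siNC, from the fit over all tested genes; each point is 1 gene and the bar is 1 SE on each side. TPM4 lies at 1.12, TPM1 and TPM3 lie below 0, and the remaining members lie between -0.10 and 0.41.

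The plot of member fold changes shows how far TPM4 lies from the other members, and how wide the error of the scarce TPM2 is. Levels per length gave this order in siNC by the table's length: TPM3, ACTN4, TPM1, TPM4, CNN1, MYL9, ACTN1, TMOD3, TAGLN and TPM2. In siNAT10, TPM4 was in place 2 instead of place 4, at 76.8 RPKM against 35.3 RPKM in siNC. By transcript length the leading order was TPM3, TPM1, TPM4 and ACTN4 in both groups, so the move of TPM4 past ACTN4 and TPM1 depends on the length used. Neighbours in the order by the table's length differed by more than their SDs, as did TPM4 and CNN1 in siNC at 35.3 ± 0.812 and 33.4 ± 0.796 RPKM.

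Across the members, the groups did not overlap for 8 of 10 genes, beside 51.4% of all tested genes, and nothing is read from that count because the list was selected on this contrast. The median log2 fold change was 0.12 over the members and 0.0070 over all tested genes. All 10 members together took 0.374 ± 0.00385% of reads in siNC and 0.407 ± 0.00415% in siNAT10.

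The wider actin cytoskeleton was described with 8 lists of 144 other genes, drawn up by function with earlier results of these data known, of which 126 were tested. At an adjusted p under 0.05, 45 rose and 38 fell with the NAT10 siRNA, or 65.9% of those tested, a description from which nothing is read about the lists as a whole. With library size only in place of TMM, 51 rose and 31 fell. Over all tested genes, 44.1% passed, 21.8% as higher and 22.3% as lower, and 2.33% also had a log2 fold change over 1 in size. Only PARVB, at 1.15 (SE 0.200), and TAGLN3, at -1.14 (SE 0.0743), passed that limit among the tested genes of the lists. PARVB, an adhesion adaptor, was scarce, at 1.31 ± 0.448 CPM in siNC and 2.95 ± 0.182 CPM in siNAT10. TAGLN3 was at 19.0 ± 0.918 and 8.58 ± 0.0501 CPM. PARVB is named after its value was seen.

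Myosin II is the motor that pulls on tropomyosin-coated filaments; of the list of its chains with the kinases and the phosphatase of its light chains, 7 rose and 3 fell of 14 tested. MYH9, a non-muscle heavy chain, rose from 1156 ± 32.9 to 1899 ± 41.9 CPM (log2 fold change 0.72, adjusted p = 5.15e-16 by edgeR's quasi-likelihood test, Benjamini-Hochberg adjusted, higher in all 3 siNAT10 libraries). MYL12A, a regulatory light chain like MYL9, fell from 403 to 269 CPM (log2 fold change -0.58). Of the list of other tropomodulins, leiomodins, actinins, calponins and transgelins, 2 rose and 4 fell of 8 tested. CNN3 fell (log2 fold change -0.32), and TMOD1 rose (0.33). TMOD2, the other that rose, went from 3.17 ± 0.619 to 5.49 ± 0.420 CPM (0.79, SE 0.136). Its mean was under the 5 CPM set for naming, and TMOD2 is named after its value was seen. The call of TMOD1 was lost in DESeq2 and without siNC 1, siNC 2, siNAT10 1 or siNAT10 2 in turn, its Benjamini-Hochberg adjusted p from edgeR or DESeq2 running from 0.00721 to 0.107 over the alternatives.

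Of the actin isoforms, ACTB rose (log2 fold change 0.15) and ACTG1, at 946 and 951 CPM, did not pass the test. Of the list of SRF and its cofactors, 4 rose and 1 fell of 8 tested. SRF, a regulator of many genes of contractile actin, rose from 46.0 ± 0.570 to 56.8 ± 1.14 CPM (log2 fold change 0.30, adjusted p = 8.78e-07 by edgeR's quasi-likelihood test, Benjamini-Hochberg adjusted, higher in all 3 siNAT10 libraries). Its cofactor genes MRTFA (0.33) and MRTFB (0.27) also rose. The call of MRTFB was lost in DESeq2 and without siNC 1, siNC 3 or siNAT10 2 in turn; over its 14 alternatives, the Benjamini-Hochberg adjusted p from edgeR or DESeq2 lay between 0.00372 and 0.0606.

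Of the stress fibre and focal adhesion linkers, 17 rose and 12 fell of 42 tested, among them EVL (log2 fold change 0.81) and ENAH (-0.65), which both promote filament growth. Of the genes of filament assembly and turnover, 4 rose and 7 fell of 22 tested, with TWF1 at -0.81 and CAPZA1 at -0.49. The Arp2/3 list had 6 that rose and 7 that fell of 19, with WASL at -0.60 and ARPC1A at 0.41. The genes with the highest RPKM in the myosin, assembly and Arp2/3 lists, MYL6 (-0.02), TMSB10 (-0.0075) and ARPC3 (0.0050), did not pass the test. The bundlers and membrane linkers had 4 in each direction of 10, with RDX at -0.72 and SPTBN1 at 0.42.

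**Figure D4:**
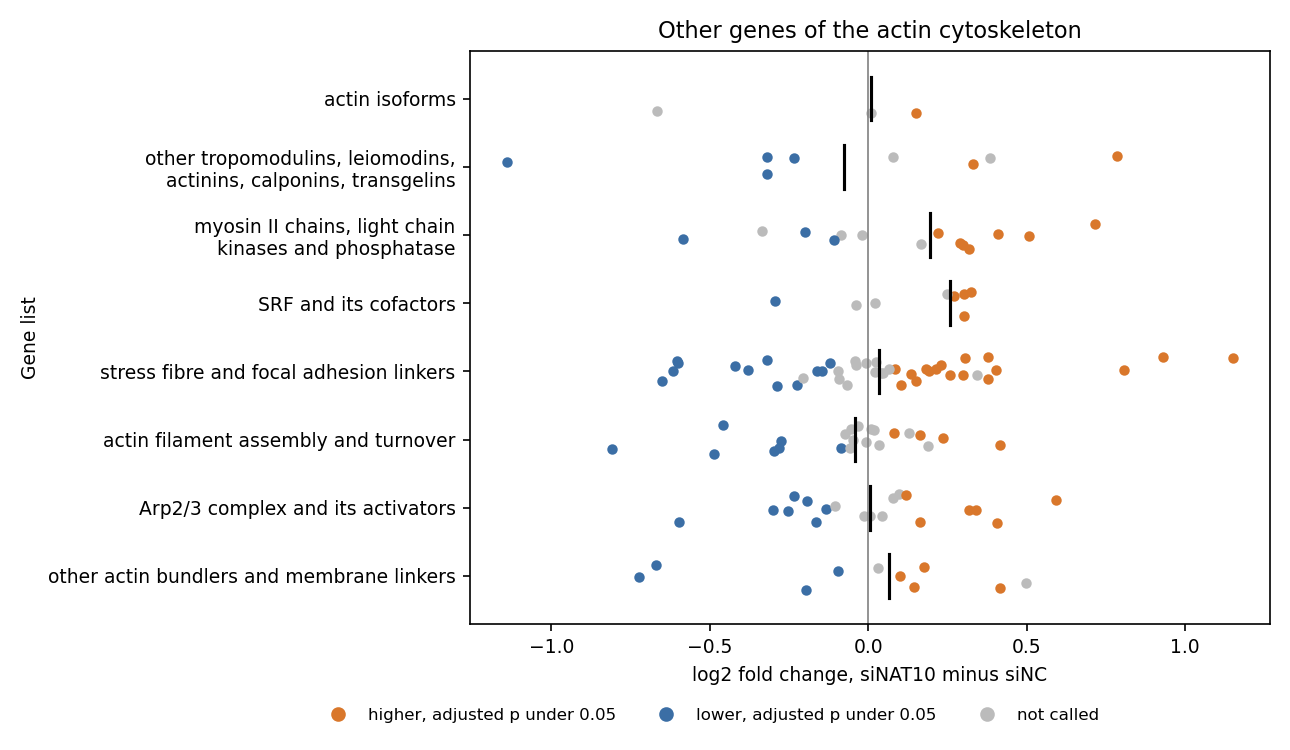
Log2 fold change, siNAT10 minus siNC, of the 126 tested genes in 8 lists of the actin cytoskeleton; each point is 1 gene, coloured by its call at an adjusted p under 0.05, and the black mark is the median of the list. Every list other than the actin isoforms holds genes that rose and genes that fell, and the medians lie between -0.08 and 0.26.

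The plot of the companion lists shows that called genes lay on both sides of 0 in every list but that of the actin isoforms. Marker genes were checked because CNN1 and TAGLN are also markers of smooth muscle. Of 10 smooth muscle and myofibroblast markers, 6 had 10 counts in 3 libraries, led by SMTN at 111 CPM, and DES, ACTG2 and MYOCD had under 10 counts in every library. Summed, this list was at 219, 219 and 219.7 CPM in siNC and 239.6, 227 and 239 CPM in siNAT10. CNN1 and TAGLN are part of these sums, and their means differed by 12.6 and -0.69 CPM, so the sums are no separate check of these members. SMTN was at 109 ± 3.71 CPM in siNC and 113 ± 4.01 CPM in siNAT10, with overlap, and did not pass the test. ACTA2, a smooth muscle actin of this list, was scarce and lower, at 0.834 ± 0.145 CPM in siNC and 0.525 ± 0.138 CPM in siNAT10 with no overlap, and did not pass the test. The epithelial list was led by KRT8 at 1452 CPM with CDH1 under 10 counts in every library, and of 14 proximal tubule markers 8 were detected, led by CDH6 at 54.1 CPM, with LRP2, CUBN and SLC34A1 under 10 counts in every library. The part of any other cell type in the member values was not tested.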

How the data were processed

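Stranded mRNA libraries were read, with molecular identifiers meant to correct for duplicate reads, per the study's methods. Whether identifiers were merged, whether the counting used strand, and which annotation was used are not given in the sources used here. Whole-number counts per gene were deposited by the authors, whose processing notes name Trimmomatic 0.36, STAR 2.5.3a, featureCounts from Subread 1.5.1, edgeR 3.12.1 and GRCh38. The table's gene length joins all exons.

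From these counts, genes were kept with filterByExpr (minimum count 10, minimum total 15), leaving 19874 of 62754 genes and 99.8% of counts. TMM factors and the quasi-likelihood test came from edgeR 4.0.16 (limma 3.58.1) in R 4.3.3, with siNC against siNAT10, no covariate, and Benjamini-Hochberg adjustment across all genes tested; the common biological coefficient of variation was 3.00%. The code was tested on simulated data. CPM used TMM-scaled library sizes; RPKM divided CPM by length in kilobases. Libraries of 1 group differed by a chi-square per gene of 1.74 to 2.55, those of different groups by 18.6 to 23.0, so no library was a copy of another. Member identifiers matched GENCODE 29 for 10 of 10 genes.

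Named in the text were the members, NAT10, ACTB, ACTG1, SRF, MRTFA and MRTFB, and in each companion list the 3 largest changes with an adjusted p under 0.05, a mean of at least 5 CPM and no overlap, plus the gene with the highest RPKM. The 5 genes nearest to TPM4 and the copies of members with 10 counts in 3 libraries were also named. Overlapping genes, PARVB and TMOD2 were named after their values were seen. The members and lists were chosen with earlier results of these data known. A list of companion genes was left out and is not reported here. Marker lists covered smooth muscle, striated muscle, fibroblast, epithelial, proximal tubule, endothelial and leukocyte genes.

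Alternatives were other scalings, a looser and a stricter filter, the replicate number as a block, edgeR's exact test, DESeq2 1.42.0 and leaving out each library; transcript length was added after seeing the data. Plots were drawn with matplotlib 3.10.9 in Python 3.11.15.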

Additional observations from a re-analysis of the deposited data

How the results depend on the processing

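Over 14 alternatives, the log2 fold change of TPM4 lay between 1.10 and 1.16 and that of NAT10 between -0.85 and -0.79. Of 140 member values under alternatives, 135 moved by less than 1 SD and none changed direction; the 5 that moved further all came with library size only, namely TPM1 (-0.31), TPM3 (-0.19), TMOD3 (0.11), ACTN1 (0.20) and MYL9 (0.12). The median shift over all tested genes with that scaling was 0.0374, and any further cause was not tested. Without 1 library, TPM2 ranged from 0.21 to 0.64, TMOD3 from 0.05 to 0.09 and TAGLN from -0.15 to -0.06.

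Genes with an adjusted p under 0.05 numbered 8771, and 6692 to 8836 under alternatives (7822 to 8168 without 1 library). Genes also past the fold limit numbered 464, but 720 with the looser filter and 299 with the stricter one, which test more and fewer genes. Called companion genes numbered 83 (71 to 84). With library size only, 57.2% of calls were higher, against 49.4%. With the replicate block, 8526 genes, 461 past both limits and 81 companions were called. No pairing by number was visible: deviations of same-numbered libraries from their group means correlated at 0.0096, 0.065 and -0.205 over 12304 genes. Those of different numbers correlated at -0.219 to 0.199, and not every library correlated best with its own number. Deviations from a mean of 3 libraries depend on each other, so these values cannot decide whether a weak pairing exists.

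Lengths, chosen after seeing the data, moved values per length: with transcript length the summed tropomyosin ratio was 0.981 instead of 1.07 (1.10 with library size only, 1.07 to 1.09 without 1 library), the TPM4 share 11.5% and 25.6% instead of 18.3% and 36.9%, and ACTN4 over ACTN1 1.22 and 1.24 instead of 2.58 and 2.61.

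Companions near 0 that never passed the test changed sign, and nothing is read from this. With library size only, which shifted all tested genes by a median of 0.0374, these were MYL6 (0.020) and TMSB10 (0.031). TMSB10 (0.0032) did so with the looser filter and ARPC3 (-0.00039) with upper quartile scaling, and the cause there was not tested. Without 1 library, ACTG1 ranged from -0.018 to 0.033, MYL6 from -0.047 to 0.0028, TMSB10 from -0.030 to 0.021 and ARPC3 from -0.013 to 0.028. Calls of TMOD1, MRTFB and EZR were lost in 5, 4 and 7 alternatives, with adjusted p up to 0.107, 0.0606 and 0.277 (edgeR or DESeq2, Benjamini-Hochberg), and TAGLN2 gained a call in 3. Low counts limit TPM2.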

Other observations

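Other genes named by rule gave these log2 fold changes, siNAT10 minus siNC. PPP1R12B, a myosin phosphatase subunit, rose (0.51), and FLNA, a filament crosslinker, rose (0.10). The SRF partner ELK3 fell (-0.29), while FHL2 rose (0.30). SYNPO (-0.62), TWF2 (-0.46) and PLS1 (-0.67) fell and BRK1 rose (0.34). EZR rose (0.10) although its groups overlapped, and its call was lost with upper quartile scaling, the block, DESeq2, or without siNC 2, siNC 3, siNAT10 2 or siNAT10 3 in turn. TAGLN2 (0.08) did not pass the test, but did with library size only and without siNC 2 or siNAT10 3 in turn. The remaining genes near TPM4 were IL1R1, at a distance of 0.143, and RAPGEF1, at 0.154.

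The other marker lists were as follows. Of 10 striated muscle genes, 5 had 10 counts in 3 libraries, led by TNNT1 at 295 CPM, and the list summed to 336, 329 and 325 CPM in siNC and 287, 292 and 295 CPM in siNAT10. Of 9 fibroblast genes, 3 were detected, led by COL1A1 at 12.1 CPM, and the list summed to 22.5, 23.9 and 22.1 CPM in siNC and 23.7, 30.6 and 24.9 CPM in siNAT10. The epithelial list summed to 2097, 2118 and 2065 CPM in siNC and 2006, 1989.8 and 2019 CPM in siNAT10, and the proximal tubule list to 130.5, 139 and 133 CPM and to 155, 167 and 163 CPM. No endothelial gene of 4 reached 10 counts in 3 libraries. Of 4 leukocyte genes, 2 did, led by CD68 at 239.5 CPM, a gene that other cells use in lysosomes; the list summed to 209, 198 and 216 CPM in siNC and 288, 265 and 268 CPM in siNAT10.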
